A study of Mus musculus with 10 samples.

Results

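The nucleolar ribosome biogenesis factors are 40 genes that make ribosomal RNA or assemble it into ribosomal subunits. They were taken by gene symbol, and all 40 were found among the 24043 gene rows of one deposited expression table and the 24016 usable rows of the other. By role they comprised 4 genes of ribosomal RNA transcription (POLR1A, POLR1B, POLR1E and DDX21), 8 abundant nucleolar proteins and cores of small nucleolar ribonucleoproteins, 12 factors of small subunit assembly and 16 factors of large subunit assembly. The rule that takes them uses gene symbols and no measured value, but the list was drawn up with earlier results of these data known.

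RNA was sequenced from 10 libraries of mouse prostate organoids, which are 3-dimensional epithelial cultures. In the chemical experiment 3 libraries came from organoids given 1 µM DZNep and 3 from organoids given DMSO. DZNep is an inhibitor of S-adenosylhomocysteine hydrolase that the study used to inhibit EZH2, which methylates histones as part of Polycomb repressive complex 2. In the genetic experiment 2 libraries came from organoids given 1 µM Tamoxifen and 2 from organoids given ethanol (EtOH). The organoids of all 4 groups derived from the dorsal-lateral prostate of C57BL/6 mice at 8 weeks, overexpressed MYC, and carried floxed Ezh2 alleles and the Tamoxifen-inducible recombinase PSA-CreERT2. They were grown in 10 nM R1881, a synthetic androgen, and collected after 3 days. The DZNep and DMSO organoids therefore also carried the floxed alleles and the recombinase. The PSA promoter drives that recombinase, so it is made where that promoter is active. The series compared control organoids with organoids in which EZH2 was inhibited by either route. The labels do not say whether replicates came from separate cultures or animals, so every p-value here reflects variation among these libraries alone, and that variation may be technical.

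Ribosomes are built in the nucleolus. RNA polymerase I transcribes a long precursor RNA, small nucleolar ribonucleoproteins modify it, and successive sets of assembly factors fold, cut and coat it with ribosomal proteins until a small and a large subunit leave the nucleus. Many of these genes are known MYC targets, and enlarged nucleoli are a known feature of prostate tumours driven by MYC. In bulk RNA a gene's level can differ because fewer cells of a type are present or because each cell holds less of its RNA, and these cannot be told apart here.

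The deposited values were log2(RPKM + 1), in which RPKM is read number scaled to transcript length and library size, so levels of different genes can be set side by side. Each library had between 15021 and 15404 genes above 0. Read counts are not in the tables. Relative depth, read from the spacing of weak values, ran between 0.753 in DZNep 2 and 1.16 in DMSO 3, with DMSO 1 as unity, but only 18.9% to 23.2% of weak genes stood at these ratios, so depth is known only roughly. All 12 epithelial markers examined passed the expression filter of a mean of 1 RPKM, and the basal keratin KRT5 lay at 2748 to 2758 RPKM with DZNep, against 2030.3 to 2079 RPKM with DMSO. Of these 12 markers 5 rose and 0 fell with DZNep, beside 16.6% and 11.1% of all genes tested. The DZNep differences of 6 markers were below 0, and the median of the 12 was -0.007. With Tamoxifen 2 fell and 0 rose, beside 1.38% and 0.692% of all genes tested. The part of these markers in the results below was not tested. Of 10 immune markers, 8 were under 1 RPKM in all libraries, among them the leukocyte marker PTPRC, which did not exceed 0.00494 RPKM. CD68 and CD52 were not under it throughout and passed the filter, and the highest value of an immune marker was 17.95 RPKM. Genes are called as having risen or fallen where a limma test across all genes in that filter gave a Benjamini-Hochberg adjusted p under 0.05, and all differences are on the log2(RPKM + 1) scale.

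The members spanned a wide range of levels. NPM1, the nucleolar chaperone nucleophosmin, was the most abundant, at 595, 668 and 735 RPKM in the DZNep libraries, against 846, 785 and 695 RPKM in the DMSO libraries. POLR1E, a subunit of RNA polymerase I, was the least abundant in all 10 libraries, and every member stayed above 1 RPKM in each library. The median member lay between 20.4 and 23.0 RPKM in DZNep libraries and between 18.2 and 21.9 RPKM in DMSO libraries. NPM1 alone made up 35%, 36.2% and 37.7% of the members' summed RPKM in DZNep libraries, against 43.0%, 43.2% and 42.7% in DMSO libraries. In the genetic experiment that share was 38.7% and 37.5% in Tamoxifen libraries, against 44.0% and 40.9% in EtOH libraries. The groups did not overlap in this share in either experiment, and it was not tested.

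EZH2 was the targeted gene. It had 22.5, 24.2 and 24.7 RPKM in the DZNep libraries, against 30.4, 29.8 and 27.1 RPKM in the DMSO libraries. It fell by 0.28 on the log2 scale (SE 0.0612, limma adjusted p = 0.0142), and without DMSO 2 the limma adjusted p was 0.0641. An exact permutation test, two-sided, had p = 0.1, and 3 libraries against 3 cannot go lower. In the genetic experiment EZH2 had 32.0 and 33.2 RPKM with Tamoxifen, against 27.9 and 34.0 RPKM with EtOH, and the log2 difference was 0.08 (SE 0.0986, limma adjusted p = 0.635). There the exact permutation p was 1, with 0.333 the smallest possible. A value for the whole gene does not show whether the floxed part was lost, so the genetic experiment has no check of deletion here.

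Many members rose with DZNep. Of the 40, 17 rose and 0 fell, which is 42.5% rising, beside 16.6% of the 11143 genes tested that rose and 11.1% that fell. Quantile normalization left 15 members rising while it gave 1636 rises and 1637 falls over all genes, in place of 1850 and 1238. The members' median log2 difference was 0.20, with a range of -0.22 to 0.42, against a median of 0.01 over all genes tested. The differences of 38 members were above 0, beside 53.1% of all genes tested, and those of NPM1 and WDR74 were below 0. In 27 members every DZNep library was above every DMSO library and in 0 members below, beside 26.1% and 19.4% of all genes tested. With each library left out in turn, 6 members were called every time (POLR1E, HEATR1, RRP12, NOP2, RRS1 and NIP7) and the other 11 calls were lost at least once. The count was 29 without DMSO 1, 6 without DMSO 2, 8 without DMSO 3, and 14, 7 and 6 without DZNep 1, 2 and 3. Over all genes the rises numbered 2092, 981 and 1234 without DMSO 1, 2 and 3. Without DZNep 1, 2 and 3 they numbered 1489, 1054 and 1402. Each of these fits tested between 11119 and 11144 genes.

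**Figure D1:**
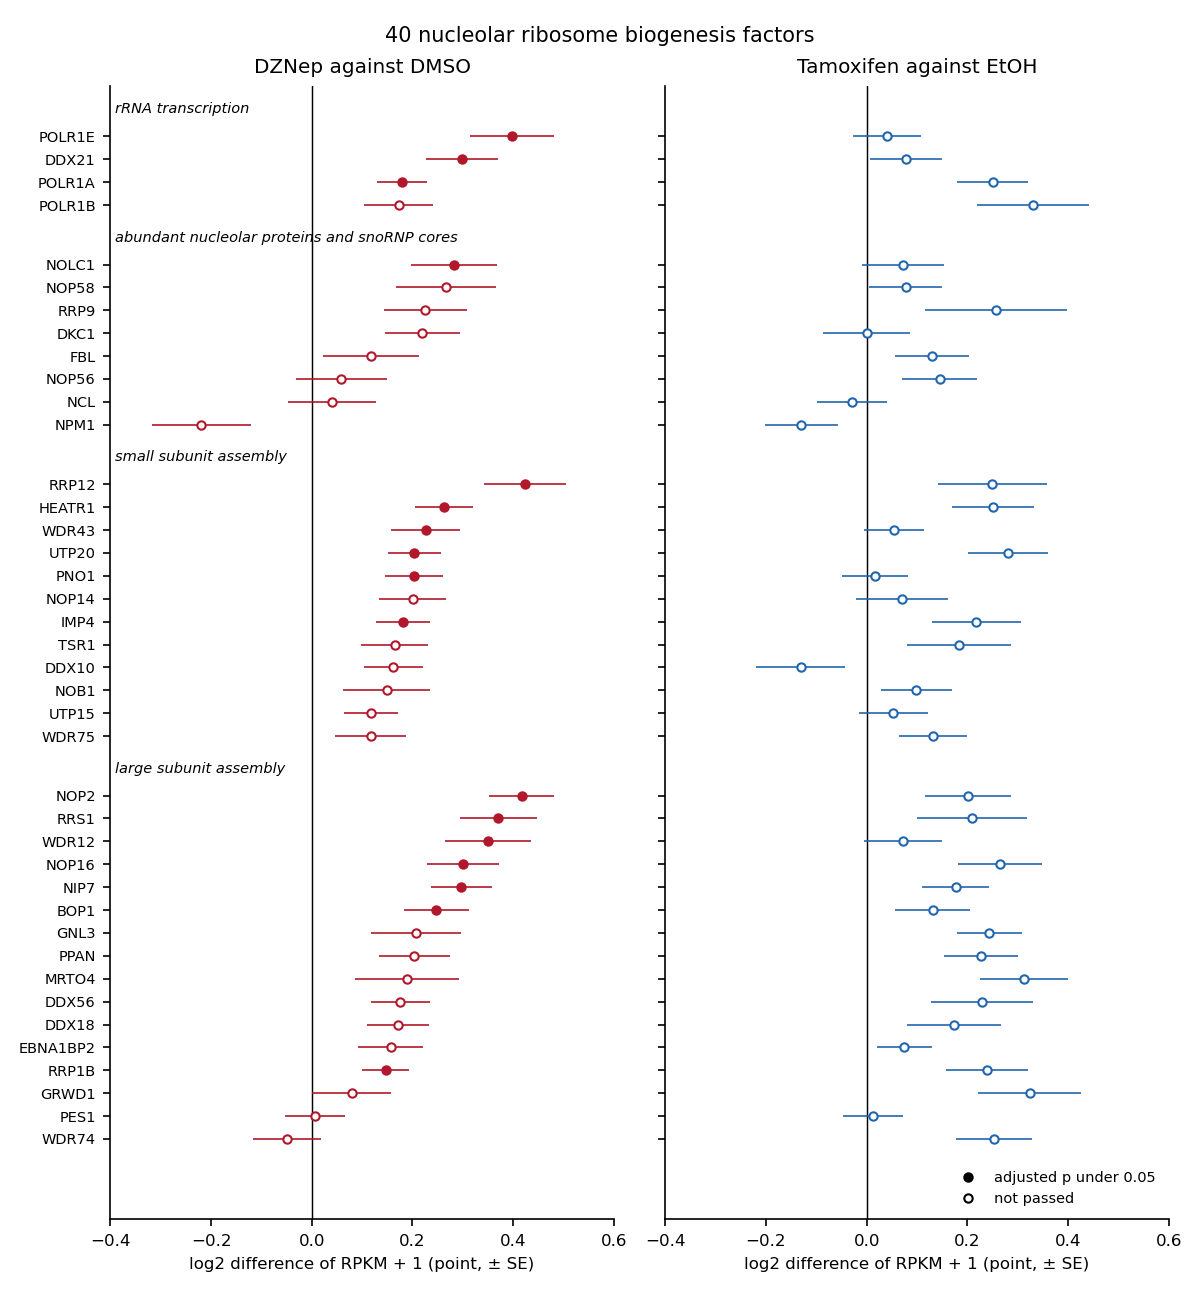
Log2 differences of RPKM + 1 for the 40 members (points, with SE), grouped by role, for DZNep against DMSO (left) and Tamoxifen against EtOH (right). Filled points passed an adjusted p of 0.05: 17 did so with DZNep and 0 with Tamoxifen.

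Among the genes of ribosomal RNA transcription, 3 of 4 rose with DZNep, beside 16.6% of all genes tested. POLR1E, the counterpart of yeast subunit Rpa49, had 4.98, 5.29 and 5.2 RPKM in DZNep libraries, against 4.20, 3.72 and 3.15 RPKM in DMSO libraries. All 3 DZNep values were above all 3 DMSO values, and the log2 difference was 0.40 (SE 0.0837, limma adjusted p = 0.0119). DDX21, a nucleolar RNA helicase that acts in ribosomal RNA transcription and processing, had 42.9, 44.8 and 48.9 RPKM with DZNep, against 39.5, 37.0 and 33.9 RPKM with DMSO. Its groups did not overlap and it rose by 0.30 (SE 0.0714, limma adjusted p = 0.0190), a call lost when DZNep 2, DZNep 3, DMSO 2 or DMSO 3 was left out (adjusted p of 0.0563, 0.0528, 0.0637 and 0.0503). The largest subunit of the polymerase, POLR1A, averaged 9.19 ± 0.209 RPKM with DZNep and 8.00 ± 0.376 RPKM with DMSO (SD, n = 3 each) and rose by 0.18 (limma adjusted p = 0.0329, up to 0.133 with 1 library omitted). The other catalytic subunit, POLR1B, differed by 0.17 and did not pass (limma adjusted p = 0.0973).

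Of the 8 abundant nucleolar proteins 1 rose (12.5%, beside 16.6% of all genes tested). Without DMSO 1, 5 of the 8 rose, beside 2092 of the 11139 genes tested in that fit. The roles were not tested against each other. The gene that passed with all libraries, NOLC1, a chaperone of small nucleolar ribonucleoproteins, had 41.0, 46.0 and 47.9 RPKM in DZNep libraries, against 40.5, 36.8 and 33.1 RPKM in DMSO libraries (log2 difference 0.28, SE 0.0849, limma adjusted p = 0.0419). DZNep 1 lay barely above DMSO 1 for this gene, and the call was lost without DZNep 2, DZNep 3, DMSO 2 or DMSO 3, with adjusted p up to 0.122. For NPM1 the log2 difference was -0.22 (SE 0.0979, limma adjusted p = 0.129), and its DZNep 3 value was above its DMSO 3 value. NCL, or nucleolin, which binds the ribosomal RNA precursor, had 99.9, 112 and 118 RPKM with DZNep, against 116, 109 and 95.6 RPKM with DMSO (log2 difference 0.04, limma adjusted p = 0.758). Its groups overlapped almost entirely. FBL, or fibrillarin, the methyltransferase of box C/D ribonucleoproteins, had 83.8, 87.7 and 89.5 RPKM with DZNep, against 92.5, 79.7 and 69.6 RPKM with DMSO. DMSO 1 exceeded every DZNep library for FBL, and its log2 difference of 0.12 had a limma adjusted p of 0.379, or 0.0476 without DMSO 1. The box C/D partners NOP58 and NOP56 differed by 0.27 and 0.06 (limma adjusted p = 0.0815 and 0.655), the pseudouridine synthase DKC1 by 0.22 (limma adjusted p = 0.0601) and the U3 ribonucleoprotein component RRP9 by 0.23 (limma adjusted p = 0.0737). Without DMSO 1, NOP58, DKC1 and RRP9 also passed, as did FBL and NOLC1.

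In small subunit assembly, 6 of 12 factors rose, beside 16.6% of all genes tested. All 12 differences were above 0, between 0.12 and 0.42, beside 53.1% of all genes above 0. RRP12, which takes part in maturation and export of small subunit precursors, had 7.40, 7.34 and 7.21 RPKM with DZNep, against 5.69, 5.56 and 4.43 RPKM with DMSO. Its 3 DZNep values lay close together and above all DMSO values, and the log2 difference was 0.42 (SE 0.0818, limma adjusted p = 0.00883). HEATR1, a component of the early processome that also acts in transcription of the precursor, averaged 9.10 ± 0.357 RPKM with DZNep and 7.42 ± 0.470 RPKM with DMSO (SD, n = 3 each) and rose by 0.26 (limma adjusted p = 0.0140). UTP20, WDR43, IMP4 and PNO1, further processome and late assembly factors, rose by 0.18 to 0.23 (limma adjusted p between 0.0258 and 0.0424). These 4 calls did not survive every omission of 1 library, and the highest adjusted p were 0.0994 for UTP20, 0.116 for WDR43, 0.115 for IMP4 and 0.113 for PNO1. NOB1, the nuclease that makes the last cut of the small subunit RNA, and TSR1, which keeps the immature subunit out of translation, differed by 0.15 and 0.16 and did not pass (limma adjusted p = 0.228 and 0.10). NOP14, UTP15, WDR75 and DDX10 did not pass either, with differences of 0.12 to 0.20.

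In large subunit assembly, 7 of 16 factors rose, beside 16.6% of all genes tested. NOP2, a methyltransferase of the large subunit RNA long known as a proliferation antigen, had 32.7, 34.2 and 34.8 RPKM with DZNep, against 27.2, 25.1 and 23.1 RPKM with DMSO. The groups were clearly apart, and the log2 difference of 0.42 had the smallest adjusted p of the 40 (SE 0.0643, limma adjusted p = 0.00355). RRS1, which helps to bring RPL5 and RPL11 into the growing large subunit, had 47.6, 48.4 and 49.9 RPKM with DZNep, against 41.4, 37.9 and 33.3 RPKM with DMSO (log2 difference 0.37, SE 0.0762, limma adjusted p = 0.0109). NIP7, a factor of precursor processing, had 11.5, 12.3 and 12.8 RPKM with DZNep, against 10.3, 9.83 and 9.08 RPKM with DMSO (log2 difference 0.30, SE 0.0606, limma adjusted p = 0.0106). For RRS1 and NIP7 too, every DZNep library was above every DMSO library. NOP16, a nucleolar factor of the early large subunit precursor, had 18.3, 20.6 and 19.9 RPKM with DZNep, against 17.1, 15.8 and 14.4 RPKM with DMSO, and rose by 0.30 (SE 0.0714, limma adjusted p = 0.0187). This call was lost without DZNep 2, DZNep 3 or DMSO 2 (adjusted p of 0.0723, 0.0548 and 0.0637).

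BOP1, PES1 and WDR12 form 1 complex that acts on the large subunit precursor, and their transcripts did not all give the same result with DZNep. WDR12 had 8.49, 9.03 and 9.59 RPKM with DZNep, against 7.76, 6.92 and 6.00 RPKM with DMSO, and rose by 0.35 (SE 0.0856, limma adjusted p = 0.0204). BOP1 averaged 29.0 ± 0.646 RPKM with DZNep and 24.3 ± 2.06 RPKM with DMSO (SD, n = 3 each) and rose by 0.25 (limma adjusted p = 0.0252). PES1 averaged 37.9 ± 1.51 RPKM with DZNep and 37.7 ± 2.43 RPKM with DMSO (SD, n = 3 each), and their log2 difference was 0.01 (SE 0.0598, limma adjusted p = 0.939). The differences between these 3 genes were not themselves tested. The WDR12 call was lost without DZNep 2, DZNep 3 or DMSO 2 (adjusted p of 0.0633, 0.0654 and 0.0643), and the BOP1 call was lost in 5 of 6 omissions, with adjusted p up to 0.0901.

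WDR74, which takes part in release of early factors from the large subunit precursor, was the only member of this role below 0, with 29.4, 28.7 and 27.5 RPKM in DZNep libraries, against 32.3, 29.6 and 27.0 RPKM in DMSO libraries (log2 difference -0.05, limma adjusted p = 0.616). RRP1B, a nucleolar protein that recruits a phosphatase, rose by 0.15 (limma adjusted p = 0.0491), and that call was lost when any 1 of the 6 libraries was left out, with adjusted p up to 0.177. GNL3, the GTPase nucleostemin, differed by 0.21 (limma adjusted p = 0.119) and PPAN by 0.20 (limma adjusted p = 0.0659). MRTO4, GRWD1, DDX18, DDX56 and EBNA1BP2 did not pass, with differences of 0.08 to 0.19.

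**Figure D2:**
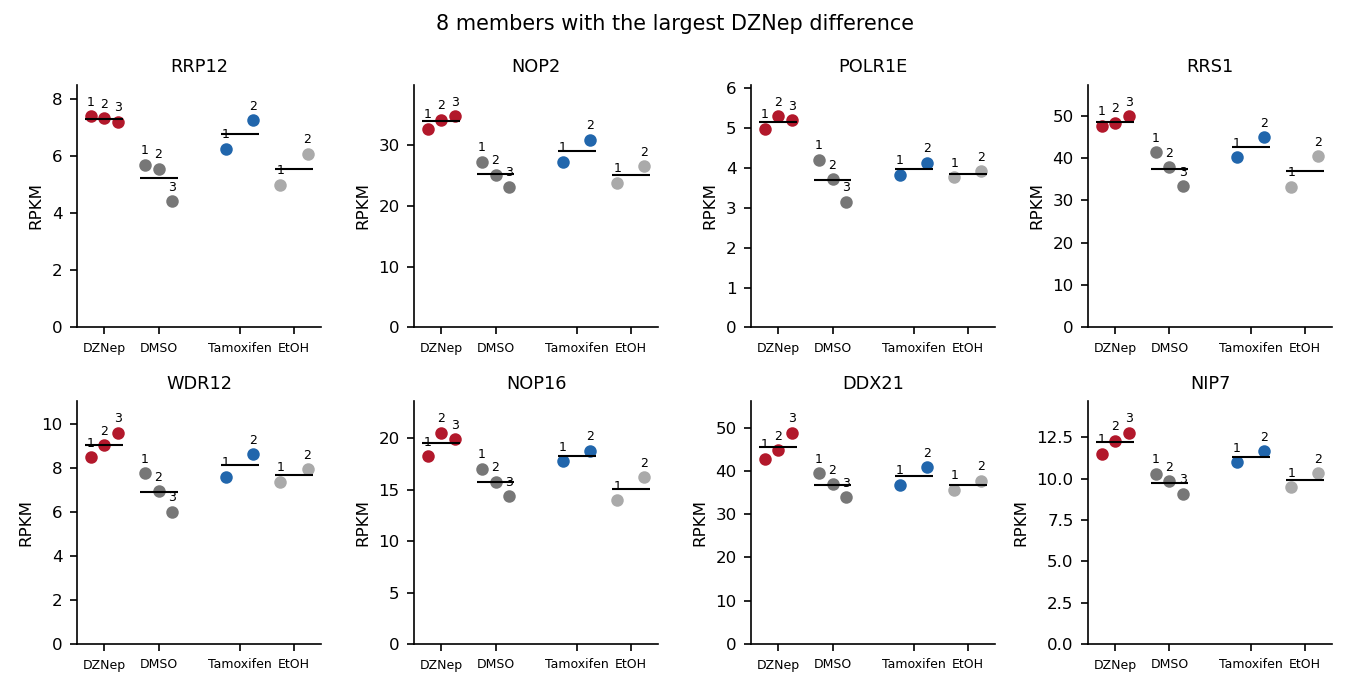
RPKM in each library (points, numbered by replicate) of the 8 members with the largest log2 difference between DZNep and DMSO, with the group mean as a line; both experiments are shown. In all 8 genes each DZNep point is above each DMSO point, and in POLR1E, WDR12 and DDX21 the Tamoxifen and EtOH points lie close together.

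MYC was itself higher with DZNep, at 72.7, 70.8 and 65.0 RPKM, against 53.7, 55.4 and 51.3 RPKM with DMSO (log2 difference 0.37, SE 0.0581, limma adjusted p = 0.00375). With Tamoxifen it had 49.7 and 56.2 RPKM, against 52.5 and 45 RPKM with EtOH (log2 difference 0.12, limma adjusted p = 0.466). Reads of the MYC construct and of the mouse gene cannot be told apart in these values, and the part of MYC in the members' levels was not tested. MXD4, an antagonist of MYC that also pairs with MAX, had 38.3, 33.8 and 36.7 RPKM with DZNep, against 25, 24.9 and 27.5 RPKM with DMSO, and rose by 0.48 (SE 0.0638, limma adjusted p = 0.00191). MYC with its partner MAX is known to bind the E-box CACGTG, so the members' promoters were searched for these letters, which read the same on both strands. RefSeq promoter windows (GRCm38.p6, from 250 bases before to 50 bases after a transcription start site) were available for 35 members, and not for BOP1, FBL, NPM1, RRP12 and RRS1. The E-box stood in 8 of the 35 (22.9%), beside 12.2% of 8374 genes tested in the chemical experiment, 8.09% of 27025 genes in all and 7.15% of all 32851 windows. The 8 stretches of 30 bases are shown because they are the sites found, with the E-box in capitals.
NOP2: gtgtccctggatCACGTGtgttccggtgcc
IMP4: acggtcttagacCACGTGacatcccaaatc
UTP20: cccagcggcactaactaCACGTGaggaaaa
PNO1: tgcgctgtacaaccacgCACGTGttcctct
WDR43: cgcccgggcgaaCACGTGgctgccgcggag
GRWD1: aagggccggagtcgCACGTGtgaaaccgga
PES1: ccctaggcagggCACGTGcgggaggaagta
TSR1: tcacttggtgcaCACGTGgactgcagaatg

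These stretches lie at chr6:125131811-125131840 (plus strand) for NOP2, chr1:34439696-34439725 (plus strand) for IMP4, chr10:88826765-88826794 (minus strand) for UTP20 and chr11:17211540-17211569 (minus strand) for PNO1. The others lie at chr17:71616220-71616249 (plus strand) for WDR43, chr7:45830740-45830769 (minus strand) for GRWD1, chr11:3963965-3963994 (plus strand) for PES1 and chr11:74898092-74898121 (plus strand) for TSR1. In NOP2 and IMP4 the first base of the E-box is at -60 and -121 relative to the annotated start, and in the other 6 it lies within the first 50 transcribed bases. NOP2, IMP4, UTP20, PNO1 and WDR43 rose with DZNep, and GRWD1, PES1 and TSR1 did not pass. Of the 27 members with a window but without the E-box, 9 rose. These shares are descriptions and no binding was measured.

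Tamoxifen gave no call for any member. With limma, 0 of 40 rose and 0 fell, beside 0.692% of the 11123 genes tested that rose and 1.38% that fell. An unadjusted limma p under 0.05 was found for 12 of the 40 members, beside 2831 of the 11123 genes. With 2 libraries in each group the tests had 2 residual degrees of freedom, so these counts do not show that the members were unaltered. The members' median log2 difference was 0.16, against 0.04 over all genes tested, with a range of -0.13 to 0.33. Above 0 were 36 members, beside 59.9% of all genes tested. In 21 members both Tamoxifen libraries were above both EtOH libraries, beside 36.6% of all genes tested, and in 1 member, NPM1, both were below, beside 23.2%. In the joint fit of all 10 libraries POLR1A and UTP20 rose, beside 479 rises and 574 falls among 10994 genes. With 1 library left out, the members' median log2 difference was 0.07 to 0.22, against 0.02 to 0.05 over all genes tested.

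The 6 members with the largest Tamoxifen differences were mostly not those with the largest DZNep differences. POLR1B had 9.68 and 10.8 RPKM with Tamoxifen, against 7.07 and 8.86 RPKM with EtOH (log2 difference 0.33, SE 0.111, limma adjusted p = 0.155). GRWD1, a histone-binding assembly factor, had 19.8 and 21.5 RPKM with Tamoxifen, against 14.7 and 17.9 RPKM with EtOH (log2 difference 0.32, SE 0.102, limma adjusted p = 0.140). MRTO4, which holds the place of a ribosomal stalk protein on the precursor, had 19.7 and 21.9 RPKM with Tamoxifen, against 15.5 and 17.7 RPKM with EtOH (log2 difference 0.31, SE 0.0873, limma adjusted p = 0.120). In these 3 genes the groups did not overlap, but the EtOH libraries were far apart, with EtOH 1 the lower. UTP20 had 11.3 and 12.5 RPKM with Tamoxifen, against 9.10 and 10.2 RPKM with EtOH (log2 difference 0.28, SE 0.0792, limma adjusted p = 0.122). NOP16 had 17.8 and 18.8 RPKM with Tamoxifen, against 14.0 and 16.2 RPKM with EtOH (log2 difference 0.26, SE 0.0827, limma adjusted p = 0.139). RRP9 had 16.5 and 20.7 RPKM with Tamoxifen, against 13.7 and 17.0 RPKM with EtOH, and its groups overlapped (log2 difference 0.26, SE 0.141, limma adjusted p = 0.304). Of these 6, only UTP20 and NOP16 were called with DZNep.

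NPM1 was the only member below 0 in both experiments. It had 659 and 699 RPKM with Tamoxifen, against 768 and 718 RPKM with EtOH (log2 difference -0.13, SE 0.0733, limma adjusted p = 0.315). NCL had 94.7 and 105 RPKM with Tamoxifen, against 103 and 101 RPKM with EtOH (log2 difference -0.03, limma adjusted p = 0.811). FBL had 87.7 and 95.5 RPKM with Tamoxifen, against 80.3 and 87.0 RPKM with EtOH (log2 difference 0.13, limma adjusted p = 0.313). Differences were above 0 in both experiments for 35 members. For NCL, DDX10 and DKC1 the DZNep difference was above 0 and the Tamoxifen difference below, that of DKC1 by less than 0.01, and for WDR74 it was the reverse. Across the 40 members the sizes of the 2 differences were only weakly related (Spearman's rho 0.12, Pearson's r 0.25). The DZNep difference was inversely related to the member's mean level, with rho -0.23 and r -0.55, or -0.17 and -0.33 without NPM1. The Tamoxifen difference was too, with rho -0.35 and r -0.41, or -0.31 and -0.24 without NPM1. These correlations are across genes of the same libraries, which are not independent replicates.

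**Figure D3:**
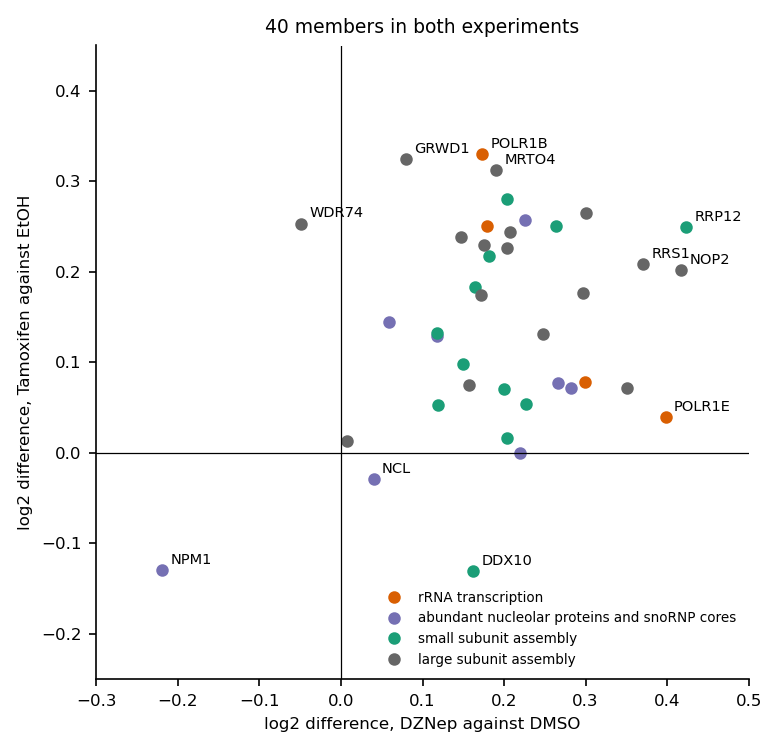
Log2 difference of RPKM + 1 for each of the 40 members, with DZNep against DMSO on the horizontal axis and Tamoxifen against EtOH on the vertical axis, coloured by role. 35 members lie in the upper right, NPM1 alone in the lower left, and RRP12, NOP2 and POLR1E farthest to the right.

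The difference between the 2 effects was tested directly, as the DZNep effect minus the Tamoxifen effect, in a limma fit of all 10 libraries. Of the 40 members, 0 were higher and 0 lower past the threshold, beside 10.7% and 9.2% of the 10994 genes tested. An unadjusted limma p under 0.05 was found for 3 of the 40, beside 3881 of the 10994 genes. The members' median difference of effects was 0.02. POLR1E, with 3.83 and 4.13 RPKM with Tamoxifen against 3.77 and 3.92 RPKM with EtOH, had the smallest p, with a difference of effects of 0.36 (SE 0.121, limma adjusted p = 0.0620). It passed without DMSO 1, with an adjusted p of 0.0171. WDR74 had 30.9 and 34.6 RPKM with Tamoxifen, against 26.4 and 28.2 RPKM with EtOH, and a difference of effects of -0.30 (SE 0.109, limma adjusted p = 0.0766, or 0.0338 without DMSO 3). DDX10, a processome helicase, had 11.9, 12.6 and 13.4 RPKM with DZNep, against 11.5, 11.5 and 10.6 RPKM with DMSO. In the genetic experiment it had 9.62 and 10.8 RPKM with Tamoxifen, against 12 and 10.5 RPKM with EtOH. Its difference of effects was 0.29 (SE 0.107, limma adjusted p = 0.0798, or 0.0434 without EtOH 2). WDR12 followed with 0.28 (SE 0.132, limma adjusted p = 0.159), after 7.59 and 8.62 RPKM with Tamoxifen, against 7.36 and 7.95 RPKM with EtOH. A call with DZNep and none with Tamoxifen thus does not show that the 2 experiments differed in these genes.

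The members varied together from library to library. Their mean log2(RPKM + 1) was 4.65, 4.72 and 4.75 in the DZNep libraries, against 4.62, 4.52 and 4.40 in the DMSO libraries. In the genetic experiment it was 4.57 and 4.72 in the Tamoxifen libraries, against 4.45 and 4.55 in the EtOH libraries. The groups did not overlap in either experiment, but DZNep 1 and DMSO 1 differed little, as did Tamoxifen 1 and EtOH 2. Within groups, DMSO 1 was the highest DMSO library for 35 of the 40 members and DMSO 3 the lowest for 37, beside 44.3% and 45.4% of all genes tested. DZNep 3 was the highest DZNep library for 26 members, beside 37.7% of all genes tested. Tamoxifen 2 exceeded Tamoxifen 1 in 40 of 40 members, beside 54.7% of all genes tested. The mean of 18 proliferation genes had the same order of libraries within every group. So had the means of the 77 ribosomal protein genes and 17 exosome and trimming factors described below, so this order was not particular to proliferation genes. The mean of the 18 proliferation genes was 4.88, 4.97 and 5.02 with DZNep, against 5.24, 5.13 and 5.0 with DMSO. In the genetic experiment it was 5.13 and 5.32 with Tamoxifen, against 5.10 and 5.23 with EtOH. With DZNep 5 of these 18 fell and 1 rose (median log2 difference -0.17), beside 11.1% and 16.6% of all genes tested. Among the falls were RRM2, a subunit of ribonucleotide reductase, at -0.42 (limma adjusted p = 0.00256), and the S phase transcription factor E2F1, at -0.42 (limma adjusted p = 0.00321). The part of proliferation in the members' levels was not tested. Of 12 fibroblast and smooth muscle markers, 9 were under 1 RPKM in all libraries, and COL3A1 and DES were at 0 throughout. In the chemical experiment 3 of the 12 passed the filter. With DZNep 2 of these rose and 1 fell (log2 differences of -0.30 to 1.11). The summed level of all 12 was 9.71 to 10.6 RPKM with DZNep, against 4.80 to 6.16 RPKM with DMSO. In the genetic experiment that sum was 4.83 to 6.04 RPKM with Tamoxifen, against 5.30 to 5.67 RPKM with EtOH. Its part in the members' levels was not tested.

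**Figure D4:**
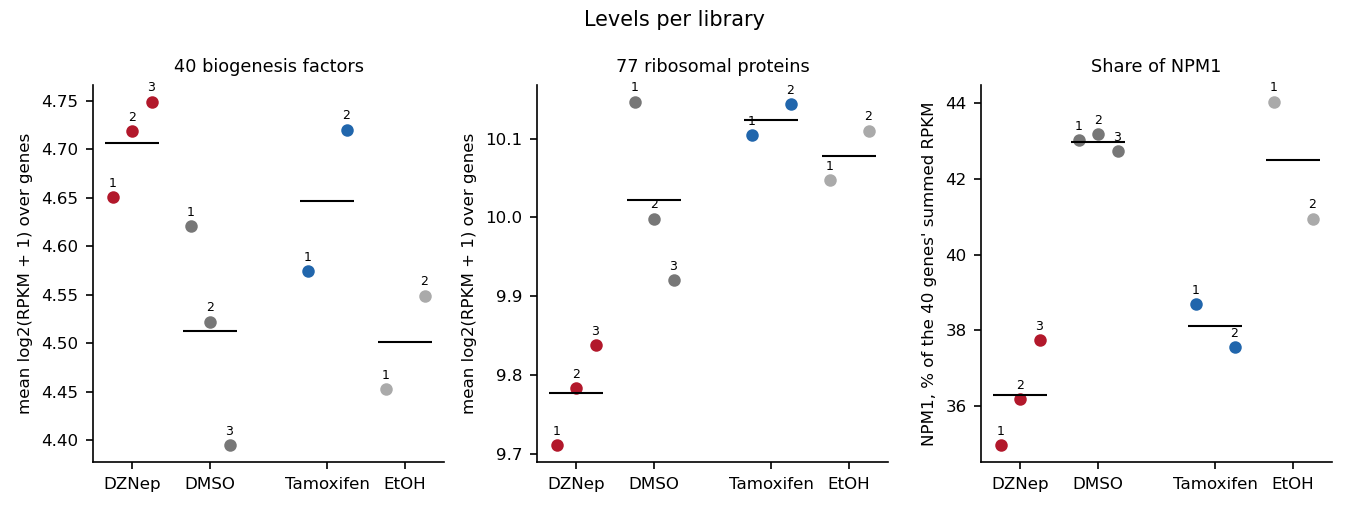
Mean log2(RPKM + 1) of the 40 members (left) and of 77 ribosomal protein genes (centre), and the share of NPM1 in the members' summed RPKM in percent (right), per library (points, numbered by replicate) with group means as lines. The vertical axes do not start at 0. The members are higher and the ribosomal proteins lower in all DZNep libraries than in all DMSO libraries.

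Ribosomal proteins, which the members assemble into subunits, had the opposite direction with DZNep. Of 77 genes for cytosolic ribosomal proteins, 44 fell and 0 rose, beside 11.1% and 16.6% of all genes tested. The median log2 difference of the 77 was -0.25. Quantile normalization gave 51 falls and 1 rise among them (median -0.16), beside 1637 falls and 1636 rises over all genes. The 44 falls comprised 22 of 31 small subunit proteins and 22 of 46 large subunit proteins. RPS19, a small subunit protein, had 717, 746 and 738 RPKM with DZNep, against 1092, 968 and 937 RPKM with DMSO (log2 difference -0.44, SE 0.0688, limma adjusted p = 0.00368). RPS14 fell by 0.36, RPL17 by 0.36 and RPL5 by 0.36 (limma adjusted p = 0.0118, 0.00476 and 0.00768). The mean log2(RPKM + 1) over the 77 was 9.71, 9.78 and 9.84 in DZNep libraries, against 10.15, 10.00 and 9.92 in DMSO libraries, without overlap. They held 17.2% to 18.2% of summed RPKM in DZNep libraries, against 20.2% to 21.6% in DMSO libraries. The count of falls was 17, 14 and 27 without DZNep 1, 2 and 3, and 35, 11 and 49 without DMSO 1, 2 and 3. Over all genes the falls numbered 1060, 701 and 964 without DZNep 1, 2 and 3. Without DMSO 1, 2 and 3 they numbered 1267, 541 and 914. Ribosomal protein genes have near-identical processed copies in the genome, and the sources used here do not say how reads shared with them were counted. The same holds for NPM1. With Tamoxifen 0 of the 77 passed in limma, 58 were above 0, beside 59.9% of all genes tested, and the median was 0.10. The difference of effects was lower past the threshold for 34 of the 77 and higher for 1, RPL26, with a median of -0.35. Over all genes tested these shares were 9.2% and 10.7%.

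**Figure D5:**
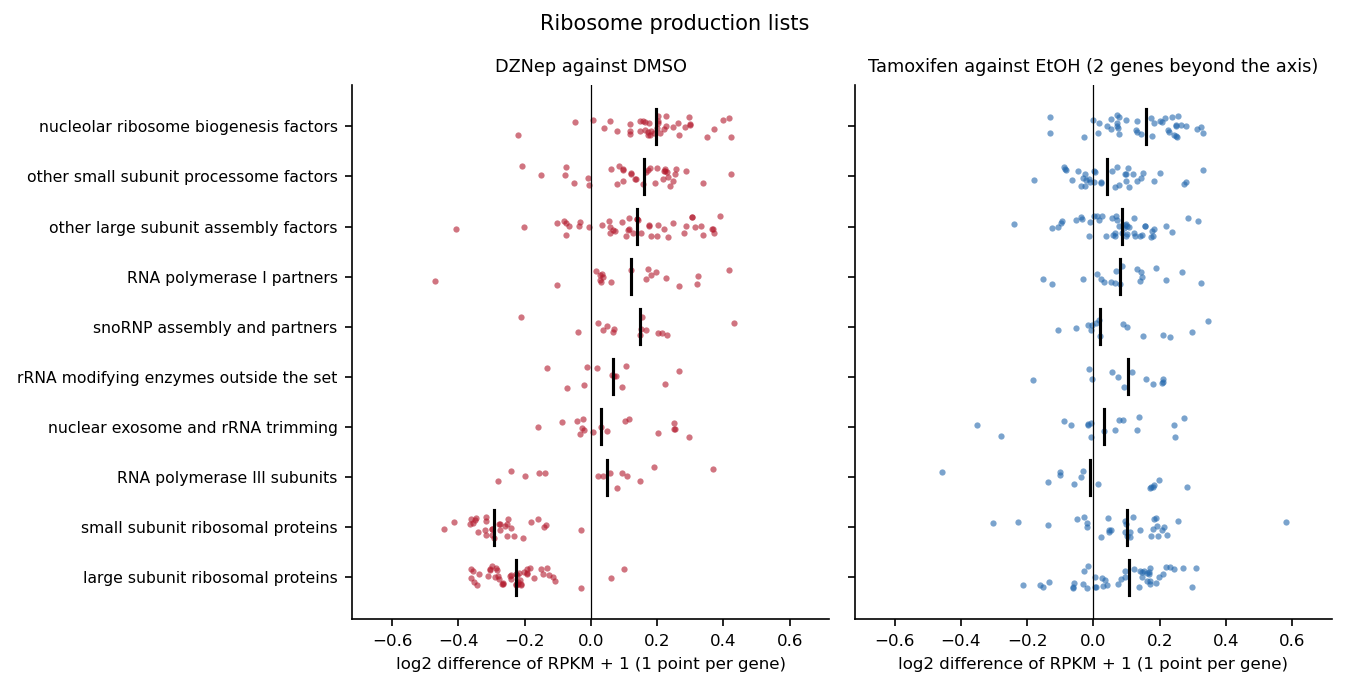
Log2 difference of RPKM + 1 for each gene (point) of the 40 members and of 9 further lists of the ribosome production pathway, with list medians as vertical bars, for DZNep against DMSO (left) and Tamoxifen against EtOH (right, with 2 genes beyond the axis). The member median is 0.20 with DZNep and the medians of both ribosomal protein lists are below 0, whereas with Tamoxifen both are above 0.

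Assembly factors outside the 40 had the same sign as the members more often than not. Of 45 other large subunit factors 14 rose and 2 fell with DZNep (median 0.14), and of 36 other small subunit factors 9 rose and 1 fell (median 0.16). Over all genes tested 16.6% rose and 11.1% fell. Together these 23 rises were 23, 9 and 12 without DZNep 1, 2 and 3, and 37, 9 and 12 without DMSO 1, 2 and 3. The rises over all genes under the same omissions are given above. GTPBP4, a GTPase of the early large subunit precursor, had 27.4, 29.9 and 30.3 RPKM with DZNep, against 22.5, 22.4 and 21.2 RPKM with DMSO (log2 difference 0.39, SE 0.0549, limma adjusted p = 0.00236). GLTSCR2, a large subunit factor also known as NOP53, fell by 0.41 (SE 0.0530, limma adjusted p = 0.00168). DDX47 and RCL1, factors of small subunit RNA processing, rose by 0.25 and 0.42 (limma adjusted p = 0.00647 and 0.00742).

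Of 19 partners of RNA polymerase I 4 rose and 1 fell with DZNep (median 0.12). That is 21.1% rising, near the 16.6% of all genes tested. CD3EAP, which pairs with POLR1E in the polymerase, had 14.7, 17.2 and 16.5 RPKM with DZNep, against 12.9, 11.9 and 10.8 RPKM with DMSO (log2 difference 0.42, SE 0.0785, limma adjusted p = 0.00806). TAF1D, of the promoter selectivity factor, fell by 0.47 (SE 0.0726, limma adjusted p = 0.00355). Of 15 partners of small nucleolar ribonucleoproteins 2 rose and 0 fell, which is 13.3% rising, below the 16.6% of all genes tested. The 2 were NOP10, which joins DKC1 in the pseudouridine synthase, by 0.43 (limma adjusted p = 0.00532), and NUFIP1 by 0.23 (limma adjusted p = 0.0363, up to 0.126 with 1 library omitted). Other ribosomal RNA modifying enzymes had 2 rises in 12 (RRP8 and WBSCR22, median 0.07) and exosome and trimming factors 2 rises in 17 (EXOSC1 and EXOSC4, median 0.03), shares close to or below the 16.6% of all genes. These 4 calls were lost when 1 library was omitted, that of RRP8 in 1 of 6 omissions (without DMSO 2, adjusted p = 0.0641) and the others in 4 of 6, with adjusted p up to 0.109 for WBSCR22, 0.0912 for EXOSC1 and 0.117 for EXOSC4. RNA polymerase III makes the remaining ribosomal RNA. Of 14 genes for its subunits and transcription factors, 2 rose and 3 fell (median 0.05), beside 16.6% and 11.1% of all genes tested. With Tamoxifen 0 genes of these lists passed apart from the polymerase III subunit POLR3G, which fell by 0.46 (SE 0.0524, limma adjusted p = 0.0330), at 7.69 and 7.75 RPKM with Tamoxifen, against 11.1 and 10.8 RPKM with EtOH. Its call was lost without either Tamoxifen library, with adjusted p up to 0.240.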

How the data were processed

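Per the labels' protocols, 500 ng of TRIzol-extracted total RNA went into each TruSeq stranded mRNA library. The submitters' processing notes name bcl2fastq 2.18, STAR, Cufflinks and build mm9. Other versions, the use of strand and the treatment of shared reads are not given in the sources used here. In 2 tables the authors deposited log2 values per gene, 1 table per experiment, with a floor of 0, read here as log2(RPKM + 1). Of the symbols of the genetic experiment, 27 had become dates and were left out.

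A mean of 1 RPKM or more was required, and genes were tested with limma 3.58.1 in R 4.3.3 (mean trend, two-sided, Benjamini-Hochberg over all genes tested, threshold 0.05), each table alone, with 4 and 2 residual degrees of freedom. All 40 members passed this filter, in every group as well as on average. The difference of effects used 1 fit of 4 group means. EZH2 also had an exact permutation test, computed in R, and Spearman's rho came from scipy 1.17.1. The procedure was tested on simulated data. RPKM was obtained by undoing the logarithm and the added 1. Levels were not compared across tables, which may have been normalized separately. Promoters came from RefSeq on GRCm38.p6, so the files' own build gave no coordinates. Figures used matplotlib 3.10.9 in Python 3.11.15.

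The members, their roles, all lists and the rule for named genes were chosen with earlier results of these data known. Values per library are given for the 8 members with the largest DZNep difference, the 6 with the largest Tamoxifen difference, the 4 with the smallest p for the difference of effects, and NPM1, NCL, FBL, EZH2 and MYC. NOLC1 was given per library after its values were seen, as were the sums and shares of the members. Of each pathway list, up to 2 genes of smallest p past the threshold are named. Listed genes NOC2L and RPS3A were not found. Alternatives tried were omission of each library, 1 joint fit, a replicate block, robust variances, no trend, trimmed mean scaling or quantile normalization, a filter at 5 RPKM or none, and a pseudocount of 0.1.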

Additional observations from a re-analysis of the deposited data

Results flagged for a closer look

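In the test of the difference of effects (DZNep effect minus Tamoxifen effect, limma over 10994 genes), no member passed with all libraries and the reported settings, although POLR1E, WDR74 and DDX10 passed under some alternatives. Of the other genes named, 14 passed. Those with a higher effect of DZNep were RPL26 (4.57, SE 0.973, adjusted p = 0.0108) and KRT5 (0.72, SE 0.0865, adjusted p = 0.000645), both named outside the rule, POLR3G (0.57, SE 0.0699, adjusted p = 0.000780), the MYC antagonist MXD4 (0.69, SE 0.102, adjusted p = 0.00191), GTPBP4 (0.40, SE 0.0786, adjusted p = 0.00750), NOP10 (0.54, SE 0.108, adjusted p = 0.00822) and DDX47 (0.25, SE 0.0650, adjusted p = 0.0244). Those with a lower effect of DZNep were RPS19 (-0.66, SE 0.115, adjusted p = 0.00421), POLR3E (-0.42, SE 0.0784, adjusted p = 0.00593), E2F1 (-0.54, SE 0.106, adjusted p = 0.00793), RPS14 (-0.62, SE 0.126, adjusted p = 0.00888), GLTSCR2 (-0.36, SE 0.0776, adjusted p = 0.0119), RRM2 (-0.49, SE 0.118, adjusted p = 0.0182) and RPL5 (-0.39, SE 0.0973, adjusted p = 0.0207). Omission of 1 library ended the limma call for DDX47 (adjusted p up to 0.0994), RRM2 (up to 0.0839), RPL5 (up to 0.0878) and GLTSCR2 (up to 0.0508), and for none of the other 10. Groups of 2 or 3 libraries were too small for a test of single outlying libraries.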

How the results depend on the processing

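No member changed direction while called under any alternative. With DZNep, 17 members rose in the reported fit, 11 with no filter, 4 with the replicate block and 6 to 29 with 1 library left out, and no alternative made a member fall. Over all genes, the block gave 1016 rises and 594 falls, and omissions gave 981 to 2092 rises and 541 to 1267 falls. EZH2 with DZNep was -0.28 with the block (adjusted p = 0.0588) and -0.33 to -0.24 with omissions. Ribosomal proteins that fell numbered 16 with no filter, 3 with the block and 11 to 49 with omissions, and other assembly factors that rose 13, 11 and 9 to 37 (all alternatives for these lists were chosen after seeing the data).

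With Tamoxifen, rising members numbered 5 with the block, 2 in the joint fit and 0 to 4 with omissions. All genes gave 116 rises with a pseudocount of 0.1, 1 rise and 0 falls with no filter, 252 falls with quantile normalization, 297 falls with trimmed mean scaling, 261 rises and 385 falls with robust variances, 429 and 449 with the block, 479 and 574 in the joint fit, and 23 to 592 rises and 14 to 385 falls with omissions. Falling ribosomal proteins numbered 1 with the block, 1 in the joint fit and 0 to 3 with omissions, and rising assembly factors 2, 1 and 0 to 2.

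For the difference of effects, 1 member was lower with quantile normalization (WDR74) and 1 higher with trimmed mean scaling or robust variances (POLR1E). Omissions gave 0 to 1 higher, 0 to 1 lower, and a member median of -0.031 to 0.111. All genes gave 684 higher and 542 lower with the block, and 541 to 1278 higher and 383 to 1048 lower with omissions. Ribosomal proteins with a lower effect numbered 10 with no filter, 4 with the block and 3 to 41 with omissions. The EZH2 difference of effects, -0.36 (adjusted p = 0.0566), passed at -0.37 with quantile normalization (adjusted p = 0.0321), -0.34 with trimmed mean scaling (0.0476) and -0.36 with robust variances (0.0406), and ranged from -0.49 to -0.22 with omissions. Where a cause is not plain from the setting (fewer libraries, more genes tested), the cause was not tested.

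The values do not settle whether replicate numbers pair the libraries. In the chemical experiment deviations of same-numbered libraries correlated at 0.06, 0.06 and -0.07. There, 1 of 3 DZNep libraries correlated best with the DMSO library of its own number. In the genetic experiment same-numbered libraries correlated at 0.04 and the others at -0.04, but with 2 libraries per group these values must be equal in size and opposite in sign. The replicate block there gave 429 rises and 449 falls over all genes, in place of 77 and 153. Without read counts, precision rests on the spread of 2 or 3 libraries.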

Other observations

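RPL26 and RPL34, both ribosomal protein genes, lay far outside the range of the others in the genetic experiment. RPL26 was listed at 19.7 and 15.1 RPKM with Tamoxifen, against 1435 and 181 RPKM with EtOH, and at 1167, 397 and 743 RPKM with DZNep, against 719, 830 and 954 RPKM with DMSO. RPL34 was listed at 444 and 364 RPKM with Tamoxifen, against 54.7 and 286 RPKM with EtOH, and at 47.9, 38.5 and 48.5 RPKM with DZNep, against 72.6, 52.2 and 49.8 RPKM with DMSO. Libraries of 1 group differed up to several-fold in these genes, and neither passed the limma test with Tamoxifen (adjusted p = 0.0687 for RPL26 and 0.228 for RPL34), although RPL26 passed without either EtOH library and RPL34 without EtOH 2. Both were picked out after their values were seen.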
